A study of Mus musculus with 2 samples.

Results

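Ccr9-expressing regulatory T (Treg) cells were chosen by their Ccr9 count, as the cells with 2 or more Ccr9 UMIs, where a UMI (unique molecular identifier) marks 1 captured transcript. Of 7024 cells, 368 met this rule: 67 of 3634 in the control library and 301 of 3390 in the rescued library. The remaining 6656 cells are called other cells. RNA was counted cell by cell in GFP+ Treg cells sorted by a double round of flow cytometry from spleen and lymph node of male C57BL/6 mice aged 7 months. Control cells came from Foxp3DTR-GFP/y Cd4creERT2 mice (cells pooled from 5 mice), whose Foxp3 locus was functional from birth. Rescued cells came from Foxp3LSL/y Cd4creERT2 mice (pooled from 4 mice), in which a stop cassette blocked Foxp3 until tamoxifen-activated Cre removed it. A single injection of 4-hydroxytamoxifen was given to all mice at 14 days of age, and all carried a R26Tom reporter that Cre turns on. Cre was under Cd4 control, so Treg cells of the rescued mice descend from Cd4-expressing cells in which Cre had acted, whereas control mice could make further Treg cells throughout life. Each group is 1 library of pooled cells, so there are no replicates and no test between groups. Ratios are given with 95% intervals that cover counting error only, not differences between mice.

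CCR9 is the receptor for the chemokine CCL25, which is made by the epithelium of the small intestine and of the thymus. Lymphocytes that carry it together with integrin α4β7 are drawn to the small intestine, and retinoic acid made by dendritic cells of the gut is the best known inducer of both. In Treg cells of spleen and lymph node, Ccr9 is known from recent thymic emigrants and from cells imprinted for gut homing.

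The class made up 1.84% of control cells (exact binomial interval 1.43 to 2.34%) and 8.88% of rescued cells (7.94 to 9.89%). When each cell was thinned to 2000 UMIs and shallower cells were left out (65 control and 33 rescued), the shares were 0.841% (0.568 to 1.20%) and 5.78% (5.01 to 6.62%), so the rescued share was the higher one at equal depth as well. The libraries hold only sorted Treg cells, so no cell type that should lack Ccr9 gave a background share. Cells with exactly 1 Ccr9 UMI, which lie just outside the rule, numbered 116 in the control and 107 in the rescued library. Just inside it, 23 control cells (34.3% of the class) and 67 rescued cells (22.3%) had exactly 2 UMIs. The median was 4 Ccr9 UMIs per class cell in both libraries, with a maximum of 13 in control and 30 in rescued cells. Cells with 10 or more numbered 2 in the control and 35 (11.6% of the class) in the rescued library. The class held 69.9% of all Ccr9 UMIs of the control library and 93.7% of those of the rescued library. Scaled to the total UMIs of the cells summed, as CPM, Ccr9 stood at 793 in control class cells and 1076 in rescued class cells, against 7.68 and 7.61 in other cells. These Ccr9 values chose the cells and are a description.

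**Figure D1:**
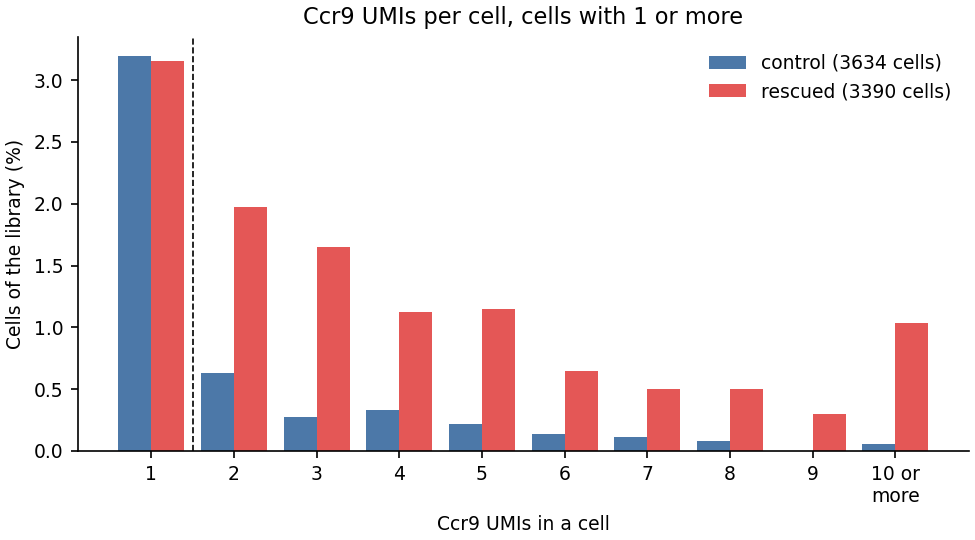
Number of Ccr9 UMIs in a cell (x axis) against the percent of all cells of a library (y axis), for cells with 1 or more Ccr9 UMIs, in the control (blue) and rescued (red) library. The dashed line marks the rule. Cells with 1 UMI were about equally frequent (116 control, 107 rescued), whereas every bin from 2 UMIs on held more rescued than control cells.

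Class cells were somewhat deeper than other cells, with a median of 4466 against 3736 UMIs in the control and 4172 against 3814 in the rescued library. The median mitochondrial share was 8.92% against 9.44% and 8.89% against 9.08%. Doublet scores (Scrublet) had a median of 0.0773 in control class cells against 0.0918 in other control cells, and of 0.107 in both populations of the rescued library. Of the cells with the highest 3.5% of scores, class cells made 2 (2.99% of the class) in the control and 14 (4.65%) in the rescued library, against 3.5% and 3.4% of other cells. There were 3 barcodes that occurred in both libraries.

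The label of the cells was checked against defining markers. Cd3e, a chain of the T cell receptor complex, had a UMI in 95.5% of control and 95.3% of rescued class cells. None of the 11 T cell genes listed was 1.5-fold apart from other cells in either library, with a median log2 ratio of -0.02 in control and 0.02 in rescued cells. Foxp3, the factor that defines Treg cells, was counted 18 times in 14 of the control class cells (53.1 CPM, against 81.6 in other cells) and 704 times in 233 of the rescued class cells (474 against 468 CPM). The shares of cells with a Foxp3 UMI at 2000 UMIs per cell were 14.9% of class and 14.4% of other cells in the control and 55.7% and 53.7% in the rescued library. The libraries carry differently engineered Foxp3 alleles, so transcript level and the way the allele is read cannot be told apart between them. Cd8a, Klrd1, Lyz2 and Alas2, which mark CD8 T, NK, myeloid and red blood cells, had no UMI in any class cell, while Cd14, a myeloid marker, had 1 and Hbb-bs, a haemoglobin chain, 2 UMIs in the rescued class. Nkg7, of cytotoxic cells, had a UMI in 5.97% of control class cells against 5.24% of other cells and in 2.33% against 3.98% in the rescued library. Summed over the CD8 T and NK list, the level was 280.2 CPM in control class cells against 165 CPM in other cells, and 144 against 128 CPM in the rescued library. In the control library 1 gene of that list was compared and was higher, and in the rescued library 0 of 3 were higher and 1 lower. Cd8b1, the other CD8 chain, had a UMI in 13.4% of control class cells against 6.62% of other cells, and in 6.31% against 6.67% in the rescued library. Plac8, the other gene named for these cells, is described with the genes that accompanied Ccr9.

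For each gene, UMIs were summed over the class cells and over the other cells of the same library, and the ratio of the CPM values was taken. Genes with an expected count of at least 20 in the class were compared, which left 3044 genes in control and 7447 in rescued cells, and a ratio of 1.5-fold or more was counted. The expected count comes from both populations together, of which the other cells are by far the larger, so a gene that is scarce outside the class reaches the minimum less easily than a gene that is scarce inside it, and the numbers of higher and lower genes are not to be set against each other. In control cells 43 genes (1.41%) were higher in the class and 88 (2.89%) lower, and in rescued cells 135 (1.81%) were higher and 286 (3.84%) lower. Of the 3043 genes compared in both libraries, 10 (0.329%) were higher in both and 16 (0.526%) lower in both. The median log2 ratio of all genes was -0.0063 in control and -0.0090 in rescued cells, and 5% to 95% of genes lay between -0.49 and 0.42 in control and between -0.51 and 0.40 in rescued cells.

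Lztfl1, which encodes a protein that controls traffic into the primary cilium, had the highest mean ratio of the genes compared in both libraries. It was counted 128 times in 41 of 67 control class cells, which is 378 CPM against 53.1 CPM in other cells (log2 ratio 2.83, interval 2.55 to 3.10). In rescued cells it was counted 566 times in 203 of 301 class cells, at 381 against 92.7 CPM (log2 ratio 2.04, 1.90 to 2.18). At 2000 UMIs per cell, 46.3% of control class cells had a Lztfl1 UMI against 8.62% of other cells, and 48.7% against 12.8% in the rescued library. Lztfl1 lies at chr9:123694416-123717697 on the minus strand (GRCm38, GENCODE M21), inside the annotated span of Ccr9 on the plus strand, chr9:123678439-123784330. Whether counting used the strand of the reads is not given in the sources used here, and the part of this overlap in the ratio was not tested. Further genes of the neighbourhood were not all higher with it. Cxcr6, a receptor for CXCL16 that lies at chr9:123806475-123811760 within the span of Fyco1, had 18 UMIs in 7 control class cells (log2 ratio 2.23, 1.44 to 2.93) and 45 UMIs in 17 rescued class cells (2.10, 1.56 to 2.63). Fyco1, which links autophagosomes to microtubules, had log2 ratios of 0.41 and 0.00, Limd1, a LIM-domain adaptor, 0.17 and 0.05, and Sacm1l, a phosphoinositide phosphatase, 0.00 and -0.36. Of the 11 neighbouring genes in the table, 2 reached the count minimum in control cells (1 higher, 0 lower) and 5 in rescued cells (1 higher, 1 lower). Of all genes, 1.41% were higher and 2.89% lower in control cells, and 1.81% higher and 3.84% lower in rescued cells.

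Of the 14 genes of retinoid handling and response in the table, 2 reached the count minimum in the control library (0 higher, 0 lower) and 7 in the rescued library (1 higher, 2 lower, where 1.81% and 3.84% of all genes were). Those with the highest ratios, singled out after their values were seen, had low counts. Dhrs3, a retinaldehyde reductase that retinoic acid induces, was counted 28 times in 17 control class cells (82.6 against 10.99 CPM, log2 ratio 2.91, 2.28 to 3.49) and 113 times in 73 rescued class cells (76.1 against 14.7 CPM, 2.38, 2.03 to 2.71). Cyp26b1, which degrades retinoic acid, had 6 UMIs in the control class against 16 in all other control cells (log2 ratio 4.06, 2.42 to 5.49) and 26 against 24 in the rescued library (3.36, 2.50 to 4.22). Stra6, a retinol transporter, had 8 against 32 UMIs (3.48, 2.15 to 4.63) and 17 against 19 (3.08, 2.05 to 4.10). Tgm2, a transglutaminase induced by retinoic acid, had 4 against 81 UMIs in control cells (1.14, with an interval of -0.77 to 2.55 that includes 0) and 26 against 85 in rescued cells (1.53, 0.84 to 2.18).

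Among the receptors of retinoic acid, Rara had log2 ratios of -0.32 (-1.28 to 0.50) in control and -0.77 (-1.23 to -0.33) in rescued cells, Rarg -0.01 (-0.89 to 0.74) and -1.27 (-1.91 to -0.70), and Rxrb 0.23 and 0.06. Dhrs3 was below the count minimum in the control library, and Cyp26b1, Stra6, Tgm2 and Cxcr6 were below it in both, so they entered no count of genes past 1.5-fold.

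**Figure D2:**
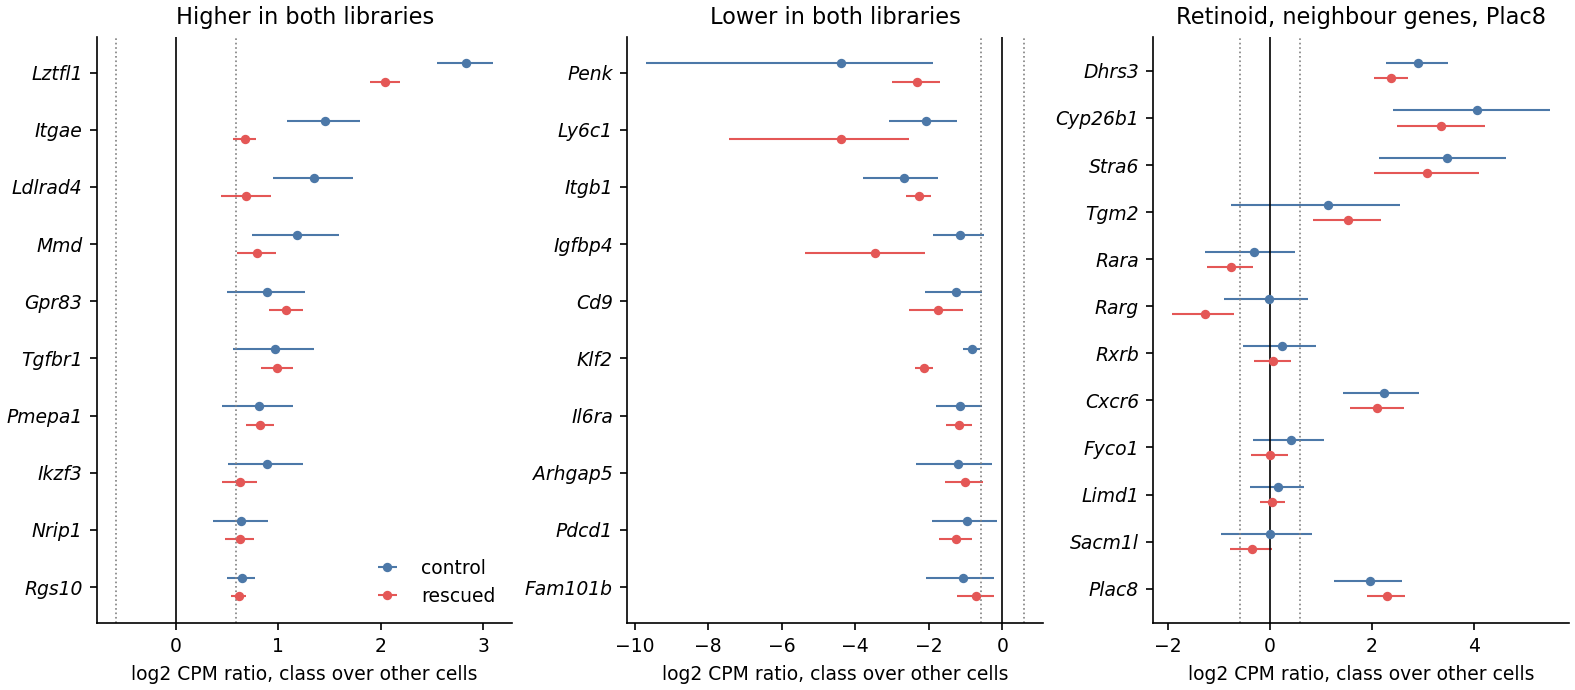
Log2 ratio of CPM in the class over other cells of the same library (x axis) for genes higher in both libraries (left), lower in both (middle) and retinoid genes, chromosomal neighbours of Ccr9 and Plac8 (right). Points are control (blue) and rescued (red), bars are 95% intervals for counting error, and dotted lines mark 1.5-fold. Lztfl1 (2.83 and 2.04) and Dhrs3 (2.91 and 2.38) lie far from 0 in both libraries, whereas Fyco1 (0.41 and 0.00) does not.

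The other 9 genes higher in both libraries had smaller mean ratios. Itgae, the CD103 chain that pairs with β7 and binds E-cadherin, was at 206 against 75.5 CPM in control cells (log2 ratio 1.45, 1.08 to 1.80) and at 484 against 304 CPM in rescued cells (0.67, 0.55 to 0.78). Tgfbr1, a receptor chain for TGF-β, had log2 ratios of 0.97 (0.56 to 1.35) and 0.99 (0.83 to 1.14). Pmepa1, a feedback inhibitor of that receptor's signal, had 0.81 and 0.82, and Ldlrad4, another inhibitor, 1.35 and 0.68. Itgae and Ldlrad4 thus had a larger ratio in the control library, while Tgfbr1 and Pmepa1 had nearly the same ratio in each. Set against other cells of the same clusters, the Itgae ratio was 0.70 in control and 0.50 in rescued cells, the latter under 1.5-fold, as was that of Ldlrad4 in rescued cells (0.55). The rest of the 10 genes were Mmd, a membrane protein of the progestin receptor family (1.18 and 0.79), Gpr83, a G-protein-coupled receptor typical of Treg cells (0.89 and 1.08), Ikzf3, the transcription factor Aiolos (0.89 and 0.63), Nrip1, a corepressor of nuclear receptors (0.64 and 0.62), and Rgs10, a regulator of G-protein signalling (0.64 and 0.61). Within clusters Pmepa1 (0.44 and 0.58), Ikzf3 (0.55 and 0.47), Nrip1 (0.53 and 0.46) and Rgs10 (0.53 and 0.41) were under 1.5-fold in both libraries.

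Penk, the precursor of enkephalin peptides, had the lowest mean ratio of the genes compared in both libraries. It was counted 1 time in the control class and 926 times in other control cells (log2 ratio -4.38, -9.68 to -1.90), and 21 times in the rescued class against 987 (-2.31, -3.01 to -1.69). Itgb1, the integrin β1 chain, was counted 9 times in 8 control class cells against 2546 times in other cells (26.5 against 169 CPM, log2 ratio -2.67, -3.80 to -1.74) and 72 times in 42 rescued class cells against 3293 (48.5 against 234 CPM, -2.27, -2.63 to -1.94). The class was thus low in β1 in both libraries, although α4, with which it pairs, and β7, the other partner of α4, were not. Itga4 had log2 ratios of 0.30 (0.01 to 0.58) and 0.26 (0.11 to 0.41), and Itgb7 0.05 (-0.17 to 0.26) and -0.14 (-0.24 to -0.04), so transcripts of the gut-homing pair α4β7 were present in class and other cells at like levels.

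Some genes of resting and recirculating T cells were also low. Klf2, a transcription factor of quiescent T cells, was at 481 against 854 CPM in control cells (log2 ratio -0.83, -1.06 to -0.61) and at 98.3 against 430 CPM in rescued cells (-2.13, -2.37 to -1.89). S1pr1, the receptor by which T cells leave lymphoid organs and a Klf2 target, had -0.57 (-1.05 to -0.14) and -2.22 (-2.77 to -1.71). Set against other cells of the same clusters, Klf2 was at -0.25 and S1pr1 at 0.05 in control cells, within 1.5-fold, and at -1.37 and -1.49 in rescued cells. Ly6c1, a Ly6C antigen, was counted 11 times in the control and 2 times in the rescued class against 2085 and 398 times in other cells (-2.09, -3.09 to -1.25, and -4.39, -7.44 to -2.53). Igfbp4, an insulin-like growth factor binding protein, had 19 UMIs, 13 of them in 1 cell, in the control class (-1.15, and -2.81 without that cell) and 4 UMIs in the rescued class (-3.47). The whole list was mixed: of 16 genes compared in the control library, 0 were higher and 4 lower (median -0.38), and of 16 in the rescued library 1 was higher and 5 lower (median -0.18). Of all genes, 2.89% were lower in control cells, and 1.81% were higher and 3.84% lower in rescued cells. Ccr7, the lymph node homing receptor, stood at -0.01 (-0.37 to 0.32) and 0.30 (0.05 to 0.54), Lef1 at -0.38 and 0.04, and Foxp1 at 0.01 and 0.23, so these transcription and homing factors of resting T cells were not low together with Klf2. Further genes lower in both libraries were Cd9, a tetraspanin (-1.27 and -1.76), Il6ra, the IL-6 receptor chain (-1.15 and -1.17), Pdcd1, which encodes PD-1 (-0.96 and -1.26), Arhgap5, a GTPase activator (-1.20 and -1.03), and Fam101b, an actin-binding regulator (-1.08 and -0.72).

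The Ccr9 rule is a threshold, and levels were therefore also taken by the number of Ccr9 UMIs in a cell. Lztfl1 was at 50.3, 127, 316, 356 and 421 CPM in control cells with 0, 1, 2, 3 and 4 or more Ccr9 UMIs, and at 88.5, 210, 227, 315 and 458 CPM in rescued cells. Itgb1 went the other way, at 172, 83.8, 43.9, 0 and 21.9 CPM in control and 239, 113, 49.8, 71.6 and 40.7 CPM in rescued cells. Cells with 1 Ccr9 UMI, which were counted among other cells, thus lay between the class and the cells with none for both genes. Klf2 in rescued cells was at 434, 310, 165, 85.9 and 77.99 CPM, whereas in control cells with 1 Ccr9 UMI it was at 940 CPM, above the 850 CPM of cells with none. Plac8 followed no steady course, at 14.6, 69.6, 8.78, 0 and 115 CPM in control cells, where the bins of 2 and 3 Ccr9 UMIs held 1 and 0 Plac8 UMIs, and at 10.8, 69.2, 21.8, 78.8 and 72.3 CPM in rescued cells.

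**Figure D3:**
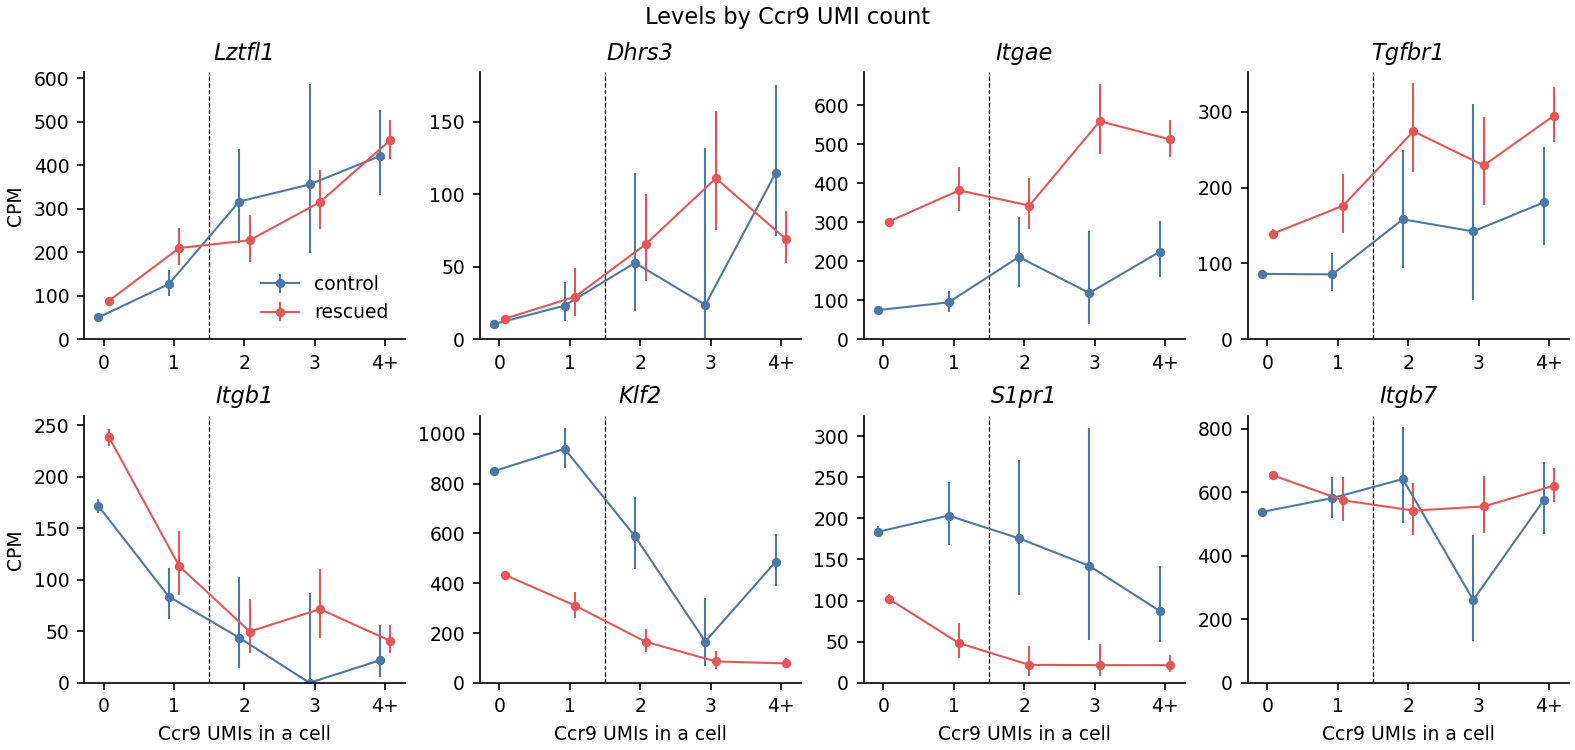
CPM (y axes) of genes in cells with 0, 1, 2, 3 and 4 or more Ccr9 UMIs (x axes) in the control (blue) and rescued (red) library, with 95% Poisson intervals, and the rule as a dashed line. Lztfl1 was higher and Itgb1 lower from 1 Ccr9 UMI on in both libraries, and Itgb7 had no such course.

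Plac8, a small cysteine-rich protein of lymphoid and myeloid cells, was at 64.9 against 16.7 CPM in control cells (log2 ratio 1.96, 1.26 to 2.59) and at 62.6 against 12.8 CPM in rescued cells (2.29, 1.91 to 2.66). Its UMIs came from few cells: 7 of 67 control class cells (10.4%, against 2.41% of other cells) and 23 of 301 rescued class cells (7.64%, against 1.65%). The level of Plac8 was thus higher in the class in each library, but most class cells had no Plac8 UMI, and the gene marks a minority of them at this depth. Of the 23 rescued Plac8 cells in the class, 21 also had an Itgae UMI, against 79.4% of all rescued class cells. Of the 7 control Plac8 cells in the class, 3 had one, against 52.2% of all control class cells. Of the rescued class cells without Plac8, 218 had an Itgae UMI and 60 had none.

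Over all cells of a library, the genes whose log-normalised counts followed Ccr9 most closely were ranked by the mean of both Pearson correlations (3634 control and 3390 rescued cells, which share depth and library). Lztfl1 came first (r = 0.217 in control, 0.355 in rescued cells), followed by Dhrs3 (0.158 and 0.207), Gbp2b (0.0554 and 0.270), Itgae (0.127 and 0.159), Fbln2 (0.153 and 0.126), Hoxb3 (0.123 and 0.155), Gimap7 (0.124 and 0.150), Rgs10, Hoxb4 and Sdc4. All of these correlations were weak, as is usual in sparse counts, and they are given as a description. Fbln2, which encodes the matrix protein fibulin-2, had only 7 UMIs in the control class against 5 in other cells (log2 ratio 5.96, 4.09 to 7.96) and 33 against 51 in the rescued library (2.61, 1.94 to 3.27). Hoxb3 and Hoxb4, homeobox factors of the B cluster, had log2 ratios of 2.73 and 2.13 in control and 2.47 and 1.60 in rescued cells. Gbp2b, an interferon-inducible guanylate-binding protein, had 1.45 (0.77 to 2.05) and 1.99 (1.83 to 2.16), and against other cells of the same clusters 0.0070 and 1.15. Sdc4, the proteoglycan syndecan-4, had 1.21 and 1.22.

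Among the Treg genes, 12 were compared in control cells, of which 2 were higher and 1 lower (median -0.16), and 13 in rescued cells, of which 3 were higher and 2 lower (median -0.09). The shares of all genes were 1.41% higher and 2.89% lower in control cells, and 1.81% higher and 3.84% lower in rescued cells. Ctla4, an inhibitory receptor, had log2 ratios of 0.63 (0.38 to 0.88) and 0.30 (0.20 to 0.40), Il2ra, the high-affinity IL-2 receptor chain, 0.09 and 0.59, and Lrrc32, which tethers latent TGF-β, 0.48 and 0.62. Ikzf2, the factor Helios, had -0.30 (-0.45 to -0.14) and -0.48 (-0.55 to -0.41), and Nrp1, a co-receptor frequent on thymus-derived Treg cells, -0.45 and -0.87. Of 12 genes of thymocytes and recent emigrants in the table, 2 in control and 4 in rescued cells reached the count minimum, and 0 were higher or lower in either. TdTomato, the reporter that records Cre activity, was at 336 against 391 CPM in control and 589 against 671 CPM in rescued cells (log2 ratio -0.22, -0.50 to 0.05, and -0.19, -0.29 to -0.09). Cells with 8 or more TdTomato UMIs made up 4.48% of class cells (3 of 67) and 2.75% of other cells in the control library. In the rescued library they made up 13.6% and 13.3%.

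Other homing receptors varied gene by gene. Ccr4, a skin- and tissue-homing receptor, had log2 ratios of 0.67 (-0.56 to 1.67) in control and 0.86 (0.54 to 1.18) in rescued cells, and Gpr55, a lysophospholipid receptor of gut lymphocytes, 0.30 and 0.92. Cxcr3, the receptor of type 1 inflammation, had 0.63 (0.17 to 1.07) and -0.39 (-0.58 to -0.20), so the libraries pointed in opposite directions. Ccr8, a receptor of tissue Treg cells, had no UMI in any class cell, against 34 and 62 UMIs in other cells. With a floor of 3 counts in place of 0, Ccr8 was 2.18-fold lower in the rescued class. The floor is a chosen value and not a limit for counting error. Areg, the repair factor amphiregulin, was counted 0 times in the control class, where the floor allows no fold, and 5 times in the rescued class against 421 times in other cells (-3.15, -4.78 to -1.92). In the list of tissue and repair Treg genes, 0 of 3 compared genes were higher and 1 was lower in the control library, and 0 of 10 were higher and 6 lower (median -0.64) in the rescued library. Of all genes, 1.41% were higher and 2.89% lower in the control and 1.81% higher and 3.84% lower in the rescued class.

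Cells with 2 or more Itgae UMIs and no Ccr9 UMI (272 control and 955 rescued cells) served as a second reference. Of 3086 genes compared with them in both libraries, 8 were higher and 30 lower in the Ccr9 class in both. Lztfl1 (log2 ratios 2.23 and 2.04), Cybb, a subunit of the phagocyte NADPH oxidase (1.27 and 0.91), Dtx1, a regulator of Notch signalling (0.98 and 0.67), Gpr83 (0.75 and 0.94) and Actn1, the crosslinker α-actinin-1 (0.88 and 0.60), were the highest. The lowest were Penk (-5.69 and -2.46), Itgb1 (-2.98 and -2.25), S100a4, a calcium-binding protein of migratory cells (-1.26 and -2.56), Il18r1, an IL-18 receptor chain (-1.58 and -1.84), and Cd74, the MHC class II invariant chain (-1.68 and -1.45). Dhrs3 was higher than in the Itgae cells by 1.94 (1.15 to 2.72) and 2.27 (1.85 to 2.69), and Cyp26b1 by 3.67 and 3.61 on 2 and 8 UMIs in the Itgae cells. Klf2 differed from the Itgae cells by -0.05 (-0.31 to 0.19) in control and -1.94 (-2.19 to -1.70) in rescued cells. In the control library Klf2 was therefore within 1.5-fold of the Itgae cells, whereas Lztfl1, Dhrs3, Penk and Itgb1 were 1.5-fold or more apart from both references in both libraries.

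Cells were clustered without Ccr9 among the input genes, and the class was located afterwards. In the rescued library 59.5% of the class lay in cluster 3, which held 26.0% of rescued cells and was led by Gbp2b, Gm14085, Hoxb4 and Cybb. In the control library 28.4% lay there (6.36% of control cells), 19.4% in cluster 1 (44.7%), led by Igfbp4 and Ly6c1, and 17.9% in cluster 2 (20.4%). The share of cells that were class cells was highest in cluster 9, led by Glrx, Maf and Icos, with 10.2% of its 49 control and 34.1% of its 88 rescued cells, and next in cluster 3, with 8.23% and 20.3%. Among the 15 nearest neighbours of a class cell in the same library, 5.27% were class cells in control and 30.5% in rescued cells, against 1.21% and 6.56% around other cells. The class therefore made up a minority of every cluster in both libraries.

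**Figure D4:**
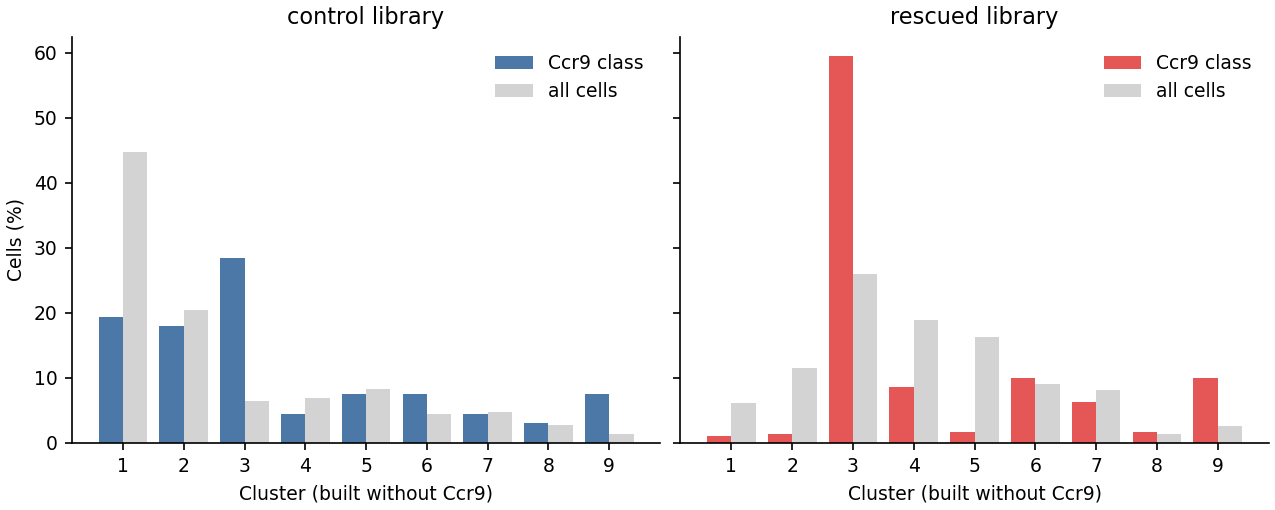
Percent of cells (y axis) in each of 9 clusters built without Ccr9 (x axis), for the class (coloured) and for all cells (grey) of the control (left) and rescued (right) library. Cluster 3 held 59.5% of the rescued and 28.4% of the control class.

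Rescued and control cells were then compared inside the class. Of 3089 genes with an expected count of at least 20 in the smaller group, 218 (7.06%) were 1.5-fold or more higher in rescued and 102 (3.3%) lower, with a median log2 ratio of 0.025 and 5% to 95% of genes between -0.51 and 0.68. The rescued class is the larger, so genes scarce in the control class (Gzma, Neb) reached the minimum while some genes scarce in the rescued class did not, among them S1pr1 (-2.52), Gzmb (-5.43) and Tmem176b (-2.13), and here too the 2 numbers are not to be set against each other. In other cells 731 of 10721 genes (6.82%) were higher and 418 (3.9%) lower in the rescued library. The same ratio was taken in other cells to show which differences were also present outside the class, and the control class of 67 cells set the precision. Several of the genes that accompanied Ccr9 had ratios near 0 between the libraries inside the class. Lztfl1 was at 378 CPM in control and 381 CPM in rescued class cells (log2 ratio 0.01, -0.27 to 0.30), against 0.80 in other cells. With the class chosen after thinning to 2000 UMIs, the ratio of Lztfl1 inside the class was not taken. The Lztfl1 ratio of class over other cells was then 2.02 in control (2.83 by the main rule) and 2.12 in rescued cells (2.04). Dhrs3 had -0.12 (-0.73 to 0.53), against 0.42 in other cells, and Plac8 -0.05 (-0.73 to 0.69), against -0.38, but with the class chosen after thinning to 2000 UMIs they were at -0.93 and -1.17, past 1.5-fold. Itgae was higher in the rescued class, at 206 and 484 CPM (1.23, 0.87 to 1.61), against 2.01 in other cells, and Ldlrad4 was lower (-0.68, -1.12 to -0.23), against -0.01.

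Most of the genes highest in rescued class cells were also high in the other rescued cells. Foxp3 had a log2 ratio of 3.16 (2.49 to 3.92) in the class and 2.52 in other cells, with differently built alleles as stated above. Epcam, an adhesion molecule, had 9 UMIs in the control and 223 in the rescued class (2.50, 1.55 to 3.65, against 1.80 in other cells), and Neb, the muscle protein nebulin, 3 and 121 UMIs (3.20, 1.62 to 5.50, against 1.78). Zcchc18, a zinc-finger protein, had 2.44 in the class and 1.74 in other cells, Gbp2b 2.13 and 1.58, and Arl5a, a small GTPase, 1.67 and 1.33. Socs3, an inhibitor of cytokine signalling through STAT proteins, was at 106 CPM in control and 358 CPM in rescued class cells (1.75, 1.26 to 2.28), against 0.50 (0.42 to 0.57) in other cells. Socs3 was among the leading genes of cluster 3, which held 59.5% of the rescued and 28.4% of the control class. The part of this in the Socs3 ratio was not tested. Il10ra, the IL-10 receptor chain, had 1.84 (0.75 to 3.19) against 0.75 (0.60 to 0.90), and Isy1, a splicing factor, 1.76 (0.67 to 3.11) against 0.12 (-0.01 to 0.26), on 7 control UMIs each. Gzma, the protease granzyme A, had the highest ratio of all (4.45, 2.58 to 7.51, against 4.43 in other cells), but its 192 rescued UMIs came from 18 cells, 84 of them from 1 cell, and the control class had 2. All 5 genes of the persisting subset that the study names were 1.5-fold or more higher in the rescued class (median 1.04), where 7.06% of all genes were, and 3 of 5 in other cells (median 0.73). It is a list that the study chose on these samples and that is therefore not independent evidence of its direction.

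**Figure D5:**
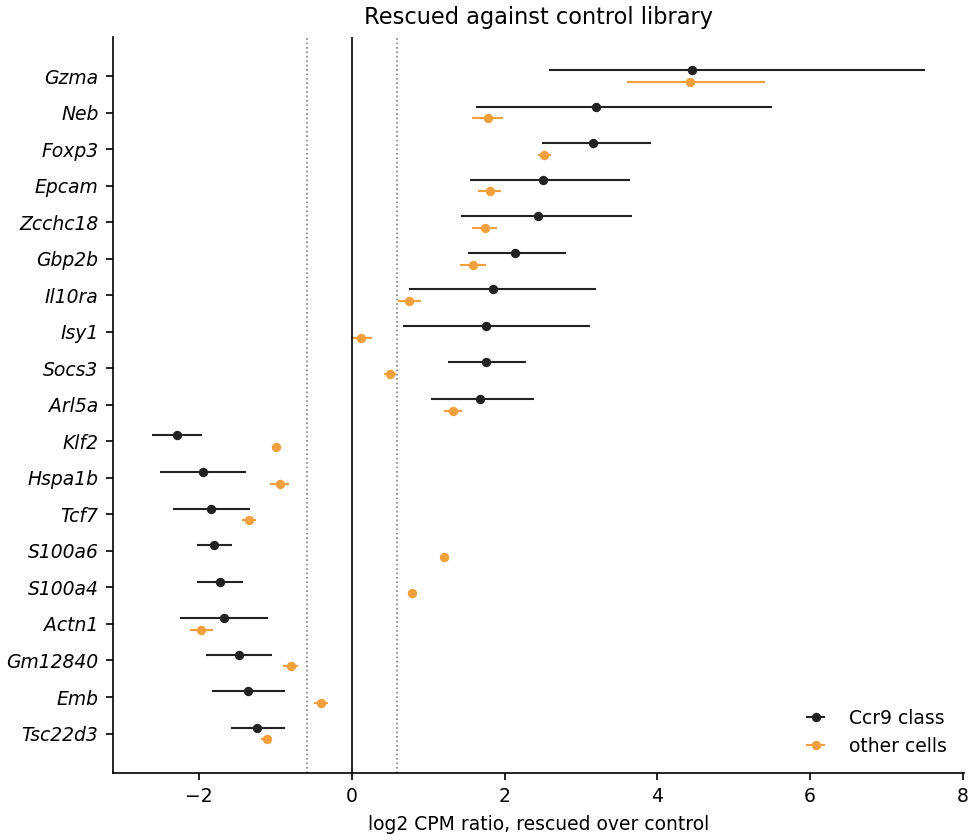
Log2 ratio of CPM in rescued over control cells (x axis) inside the class (black) and in other cells (orange) for 19 of the genes with the highest and lowest ratios inside the class, with 95% intervals for counting error and dotted lines at 1.5-fold. For S100a6 and S100a4 the class and the other cells lie on opposite sides of 0, and for Klf2 the class lies lower.

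At the other end were genes of resting T cells. Klf2 was at 481 CPM in control and 98.3 CPM in rescued class cells (log2 ratio -2.29, -2.62 to -1.96), against -0.99 (-1.03 to -0.95) in other cells. It had a UMI in 29 of 67 control class cells (43.3%) and in 57 of 301 rescued class cells (18.9%). Clusters 1 and 2 held 19.4% and 17.9% of the control class but 0.997% and 1.33% of the rescued class, and the part of this in the Klf2 ratio was not tested. Tcf7, a transcription factor of naive and memory T cells, had -1.84 (-2.34 to -1.34) against -1.35 in other cells, and Actn1 -1.68 against -1.97. Of 12 genes compared from the resting list, 0 were higher and 8 lower in rescued class cells (median -0.81), and in other cells 0 of 19 were higher and 15 lower (median -1.03). Of all genes compared, 3.3% were lower inside the class and 3.9% in other cells. Hspa1b, a heat shock protein that dissociation of tissue induces, had -1.95 (-2.51 to -1.39) against -0.95 in other cells. Of the dissociation stress list, 5 of 9 genes were lower inside the class (median -0.62) and 6 of 10 in other cells (median -0.67), against the same 3.3% and 3.9% of all genes. The part of these genes in the other ratios was not tested. Emb, a cell adhesion partner of monocarboxylate transporters, had -1.36 against -0.40, Tsc22d3, a glucocorticoid-induced regulator, -1.24 against -1.12, and the long non-coding RNA Gm12840 -1.48 against -0.80.

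S100a6 and S100a4, calcium-binding proteins of migratory and effector T cells, were lower in rescued than in control cells inside the class and higher outside it. S100a6 had a log2 ratio of -1.80 (-2.03 to -1.58) inside the class against 1.21 in other cells, and S100a4 -1.73 against 0.79. Both values rested on few control cells: the 293 control UMIs of S100a6 came from 14 of 67 class cells, and 10 cells with 5 or more S100a6 UMIs, a limit chosen after their values were seen, held 286 of them (97.6%). Those 10 cells also held 148 of the 158 S100a4 UMIs (in 8 of them) and 57 of 59 Gzmb UMIs (in 3). They held 19 of 24 Ccr2 UMIs (in 4) and 22 of 27 Tmem176b UMIs (in 5) of the control class. Of its Lztfl1 UMIs they held 51 of 128 (in 9), and of its Cxcr6 UMIs 13 of 18 (in 5). Their part was smaller for Dhrs3 (6 of 28 UMIs), Plac8 (3 of 22), Itgae (7 of 70) and Foxp3 (2 of 18). Gzmb encodes granzyme B, Ccr2 the receptor for the chemokine CCL2, and Tmem176b a membrane protein. The 10 cells lay in clusters 9 (5 cells), 5 (3 cells), 4 and 6 (1 cell each), and their median depth was 6006.5 UMIs against 3967 in the remaining control class cells. With the class chosen after thinning to 2000 UMIs, the S100a6 ratio inside the class was 0.31, and with 1 or more Ccr9 UMIs that of S100a4 was 0.21. In the rescued library S100a6 had UMIs in 92 of 301 class cells, of which 23 with 5 or more held 245 of 368 UMIs (66.6%), and was lower than in other cells (log2 ratio -1.56, -1.72 to -1.41), as were S100a4 (-2.21), Anxa2, an annexin (-3.30), Lgals1, galectin-1 (-1.43), and Crip1, a LIM-domain protein (-1.36). Of the S100, annexin and migration list, 6 of 12 compared genes were lower in the rescued class than in other rescued cells and 0 higher (median -0.55), and in the control library 1 of 11 was higher and 0 lower (median 0.23). The shares of all genes were 3.84% lower and 1.81% higher in the rescued class, and 2.89% lower and 1.41% higher in the control class.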

How the data were processed

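Sorted Treg cells were profiled with the 10x Chromium 3′ kit (V3). Per the submitters' processing notes and the methods, the authors used Cell Ranger 3.0 and Seurat 3.1.5 and aligned reads to GRCm38 with the tdTomato coding region and 3′ UTR added. The deposited table of counts holds whole UMIs for 16098 genes in 7024 cells and was used as it is. A table of normalised values was deposited as well and was not used here. The methods state that cells with over 5% mitochondrial transcripts were removed, but 3566 of the 3634 control and 3293 of the 3390 rescued cells in the table exceed 5%. Depth was 1415 to 46139 UMIs per control cell (1.54e+07 in all) and 1492 to 37190 per rescued cell (1.55e+07 in all).

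Counts were summed over class and other cells per library and scaled to the total (CPM). Log2 ratios carry conditional exact 95% intervals, shares exact Clopper-Pearson intervals and CPM Poisson intervals, all for counting error only. A floor of 3 counts over the group replaced a count of 0. With 1 library per group no test was made. Named genes were the 10 highest and 10 lowest in each comparison (5 for the Itgae reference), leaving out ribosomal, mitochondrial and antigen receptor genes, together with 26 gene lists (315 genes, 27 of them not in the table). The class, lists and rules were chosen with earlier results of these data known. Some genes that the rule or lists name are not reported here. Clusters used 2000 variable genes without Ccr9, 40 principal components and the Leiden algorithm (scanpy 1.11.5, leidenalg 0.10.2). Doublets were scored but not removed. Scripts were tested on simulated data and run with Python 3.11.15, numpy 2.4.6 and scipy 1.17.1. Alternatives changed the Ccr9 limit, depth, scaling, count minimum, doublet removal and the reference cells.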

Additional observations from a re-analysis of the deposited data

Results flagged for a closer look

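Flagged were 3 genes whose ratio of class over other cells was 1.5-fold or more in opposite directions in the libraries. How many genes of the whole table do so is not given here, so 3 is not a share of all genes. With 1 library per group the differences were not tested. For Gzmb, granzyme B, the log2 ratio was 4.14 in control and -3.45 in rescued cells, a difference of -7.59. The control value rested on 59 UMIs in 5 cells, 35 of them in 1 cell, and was 2.84 without that cell. For S100a6 it was 1.45 in control and -1.56 in rescued cells, a difference of -3.01, and 1 control cell held 101 of the 293 UMIs (0.84 without it). For Ccr2 it was 1.09 in control and -1.19 in rescued cells, a difference of -2.27, on 24 UMIs in 5 control cells (0.41 without the cell with the most). Of these UMIs, 57 for Gzmb (in 3 cells), 286 for S100a6 and 19 for Ccr2 (in 4 cells) lay among the same 10 control cells. Those 10 were chosen by 5 or more S100a6 UMIs. Gzmb and Ccr2 were below the count minimum in the control library. The cause was not tested.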

How the results depend on the processing

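No paired analysis was possible because control and rescued cells come from 1 library apiece. The class share was 5.04% of control and 12.0% of rescued cells at 1 or more Ccr9 UMIs, 1.21% and 6.90% at 3 or more, and 0.841% and 5.78% after thinning to 2000 UMIs, with the rescued share higher each time. Counts of genes past 1.5-fold followed the count minimum. Control cells had 177 higher and 303 lower at a minimum of 10, 11 and 11 at 50, and 1954 and 5883 with none. Rescued cells had 240 and 495, 55 and 105, and 1536 and 4160. Inside the class there were 493 and 303, 62 and 25, and 3459 and 2127. In control cells 157 were lower at 1 or more Ccr9 UMIs, 71 were higher and 150 lower as means of per-cell CPM, and 28 were higher within clusters, where the class sum was set against that expected from other cells of the same clusters. Inside the class there were 439 and 247 at 1 or more Ccr9 UMIs and 78 and 31 with the class chosen after thinning, which left 1037 genes to compare.

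The alternatives were applied to 117 ratios of single genes past 1.5-fold. These genes were named for their ratios in these same data or picked with results known. Several alternatives change the data little, so the numbers kept are a description. Of the 117 ratios, 38 fell under 1.5-fold in some alternative. Of their 1221 values under the alternatives, 1214 kept their direction and 1152 stayed past 1.5-fold. The 7 that turned were S100a6 in control cells (-0.52) and inside the class (0.31) and Stra6 inside the class (0.055) with the thinned class, Ccr2 in control cells (-0.084) within clusters, and S100a4 (0.21), Cxcr6 (0.052) and Ccr2 (0.34) inside the class at 1 or more Ccr9 UMIs. Within clusters several control ratios lay near 0, at -0.25 for Klf2, 0.05 for S1pr1, -0.16 for Igfbp4 and 0.0070 for Gbp2b, whereas Lztfl1 (2.20), Dhrs3 (2.10) and Itgb1 (-2.64) did not. Leaving out, for each gene, the class cell with the most UMIs was chosen after seeing the data. The causes were not tested. The 67 control class cells limit every ratio that uses them, and the intervals do not cover differences between mice.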

Other observations

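Cd79b, a chain of the B cell receptor complex, was higher in the class in both libraries, with a UMI in 29.9% of control class cells against 11.9% of other cells and in 30.9% of rescued class cells against 15.2% (log2 ratio of CPM 1.13, 0.50 to 1.69, and 0.91, 0.62 to 1.19). The other defining B cell genes were at or near 0: Cd79a had 0 UMIs in the control and 2 in the rescued class, Ms4a1 0 and 3, and Ebf1 0 in both. Cd74, which B cells express strongly, was lower in the class (-0.67 and -1.03). Of the list of B cell genes, 0 of 2 compared were higher and 1 lower in the control class, where 2.89% of all genes were lower. In the rescued class 1 of 5 was higher and 2 lower, where 1.81% and 3.84% of all genes were. Summed over the list, the level was 1289 CPM in control class cells against 1061 in other cells, and 2787 against 2276 in rescued cells. The list also holds Ighm, an immunoglobulin heavy chain gene, at 822 CPM in control cells with 0 Ccr9 UMIs and 708 CPM with 1. The sums are thus not those of the defining genes alone, and the level of Ighm in the class is not given here.

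Of the cell cycle list, 0 of 4 compared genes were higher or lower in the control class, and 0 of 10 were higher and 2 lower in the rescued class (median -0.27), where 3.84% of all genes were lower. Mki67, a marker of dividing cells, had 1 UMI in the control and 10 in the rescued class (-1.36, -2.44 to -0.46, in rescued cells). Of the interferon list, 0 of 12 and 0 of 15 genes were 1.5-fold apart in either direction, although Gbp2b, which is interferon-inducible, was among the genes closest to Ccr9. Inside the rescued class, Gzma was found in 18 cells and Plac8 in 23, and no cell had both. At this depth that does not show that the cells are separate.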
